A study of Homo sapiens with 2 samples.

Results

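The small nuclear RNA (snRNA) genes on the first stretch of human chromosome 1 were examined in a PAR-CLIP experiment on the Ku complex. The members are the 84 features that the study's supplementary table of PAR-CLIP counts gives the biotype snRNA, among the 1999 named features used here, out of 63494 features in all. The named features lie on chromosome 1 of the CHM13 v1.1 assembly and reach up to a start at 75624551, and the members were chosen by biotype and position. By symbol they fall into 52 U6, 8 U7, 7 U1, 5 U5, 4 U4, 2 U2, 2 U4atac, 2 U6atac and 1 U11 genes, with 1 other gene, AL161637.2. Of the 84 symbols, 75 end in P, the mark of a pseudogene. RefSeq lists 82 of the symbols on chromosome 1 of GRCh38.p14, calls 75 of them pseudogenes and 7 snRNA genes.

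Spliceosomal snRNAs are short, abundant nuclear RNAs that work as RNA-protein particles. U1 pairs with the 5′ splice site, U2 with the branch point, U4 and U6 enter together with U5, and U6 then forms part of the catalytic core while U5 holds the exon ends. U11, U4atac and U6atac serve the rare minor class of introns, and U7 acts outside splicing, in the 3′ end processing of replication-dependent histone mRNA. Their genes occur as near-identical copies with very many pseudogenes, so a short read often matches several places.

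PAR-CLIP crosslinks a protein to bound RNA in living cells that have taken up a photoreactive nucleoside, after which the protein is purified and its RNA sequenced. HEK293T, an established human embryonic kidney line, stably expressed SFB-Ku80, the Ku80 subunit with tandem FLAG and SBP tags, or the SFB empty vector. Both lines received 6-thioguanosine (6SG) at 0.1 mM and 365 nm UV at 0.4 J/cm2, and both were taken through streptavidin and then Flag resin. There was 1 library of each, so no difference below has a replicate check, no test was made, and every interval is a 95% interval for counting error only.

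The SFB empty vector library held 19775629 featureCounts counts and the SFB-Ku80 library 17892815. These counts include reads that map to several places, each counted at every reported place, and count the ends of a pair separately. STAR's table of uniquely mapped pairs assigned 6062669 of 29863974 read pairs in SFB empty vector and 1443251 of 22173753 in SFB-Ku80, while 25.1% and 27.0% of the pairs mapped to several places. In SFB-Ku80, 46.0% of the counts lay on 2 features and 18.9% on features of about the length of the 45S rRNA unit, against 2.26% and 2.90% in SFB empty vector. A share of all counts is therefore pressed down in SFB-Ku80 for every other feature. The ratio of the libraries is given for this reason relative to the median feature, as log2 of (count + 1) in SFB-Ku80 over SFB empty vector minus the median of that value over the 17670 features whose counts over both libraries reached 100. A value of 0 is that of the median feature, and a feature at least 1 above or below it is called higher or lower. On shares of all counts the median feature itself stood at -1.28, and on shares of assigned pairs at -0.34. How much RNA each purification yielded, or from how many cells, cannot be read from counts, so a higher share is not a higher amount.

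The snRNA genes took 1.41% of the counts of SFB empty vector (278275 counts, Wilson interval 1.40 to 1.41%) and 1.22% of those of SFB-Ku80 (218309 counts, 1.215 to 1.225%). The ratio of these shares was 0.867 (log-normal counting interval 0.862 to 0.872). Uniquely mapped pairs gave the opposite order, with 0.0361% in SFB empty vector (2190 pairs, 0.0346 to 0.0377%) and 0.120% in SFB-Ku80 (1730 pairs, 0.114 to 0.126%), a ratio of 3.32 (3.12 to 3.53). Without the 2 features that dominate SFB-Ku80 in the denominator, a setting chosen after the data had been seen, the ratio of the count shares was 1.57. Relative to the median feature the summed snRNA genes stood 1.07 higher in counts (1.06 to 1.08) and 2.07 higher in pairs (1.98 to 2.16). The intervals on counts are too narrow, since the ends of a pair, the several placements of a read and PCR copies are not independent of each other.

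These sums were almost entirely U1. RNU1-1, RNU1-2 and RNU1-4 held 99.8% of the snRNA counts with SFB empty vector and 99.7% with SFB-Ku80, and 91.9% and 93.5% of the pairs. Most members had nothing. In 51 of the 84 genes both libraries were at 0 counts, 22 had 1 to 9 counts over both libraries, 5 had 10 to 99 and 6 had at least 100. The 6 are RNU1-1, RNU1-2, RNU1-4, RNU5F-1, RNU5D-1 and RNU6-37P. The share of members at 0 in both libraries was 60.7%, near the 66.4% of the 8196 other features of up to 200 bases. Over all features it was 23.1%. The member next under the limit had 64 counts over both libraries and the lowest one above it had 200. A count of 0 allows up to 3 counts, which is 0.152 CPM (counts scaled to a common library total) with SFB empty vector and 0.168 with SFB-Ku80.

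**Figure D1:**
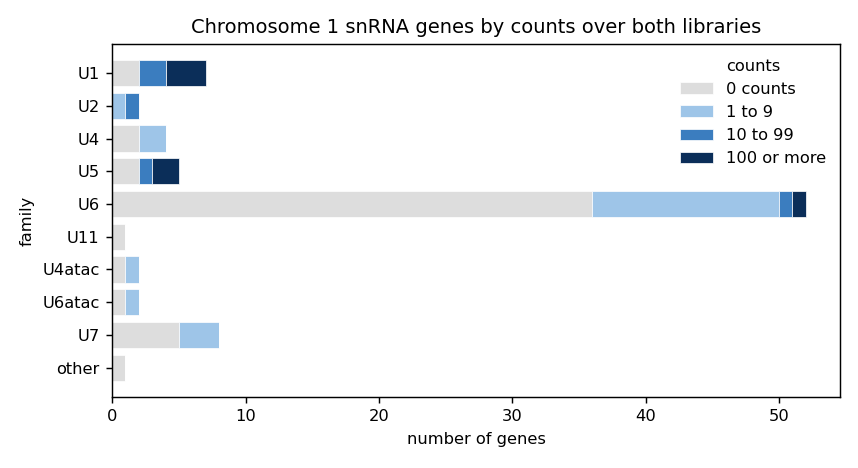
Number of snRNA genes of chromosome 1 in each family (x axis) by their featureCounts counts summed over both libraries (shade). U6 is the largest family with 52 genes, of which 36 had 0 counts, and only U1, U5 and U6 have genes with 100 or more.

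Of the 6 genes with at least 100 counts, 3 were called higher and 0 lower, and their median was 1.14. Among all features tested 26.8% were called higher and 25.3% lower. The 6 values run from 0.65 to 2.50, so all lay above the median feature, though on shares of all counts RNU1-1, RNU1-4 and RNU6-37P were lower in SFB-Ku80. In uniquely mapped pairs only RNU1-1, RNU1-4 and RNU5F-1 reached 100 pairs over both libraries. RNU1-1 and RNU5F-1 were called higher and 0 were called lower, against 22.5% and 18.8% of the 10217 features tested in pairs. Short features as a class lay above the median too. The 278 tested features of up to 200 bases that are no members had a median of 0.22 in counts and 33.8% were called higher, and in pairs their median was 1.00 with 50.0% called higher over 142 features.

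**Figure D2:**
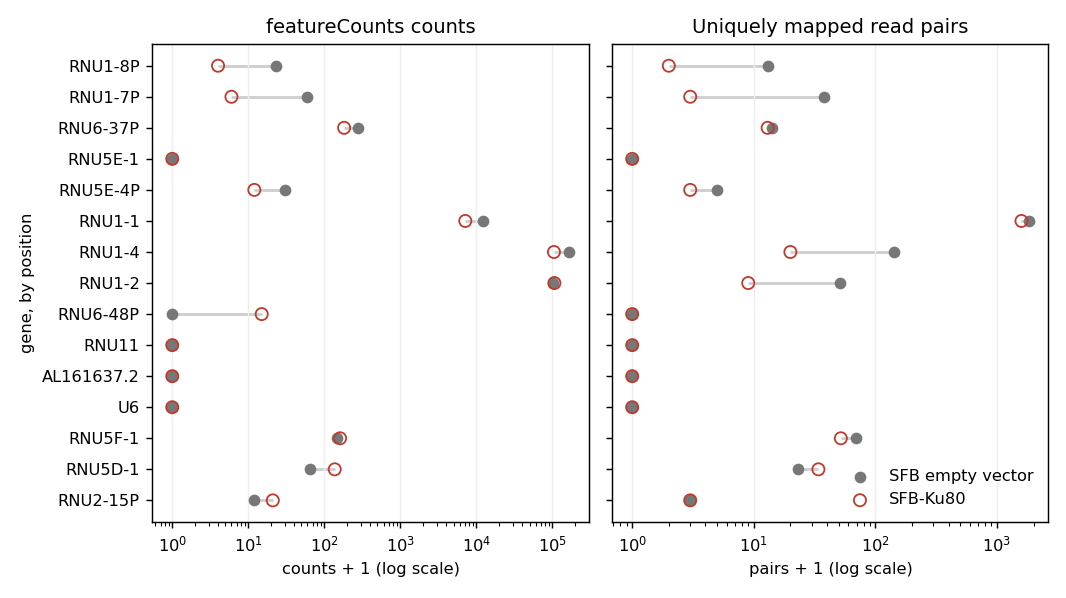
Counts (left) and uniquely mapped pairs (right) of 15 named snRNA genes in SFB empty vector (filled) and SFB-Ku80 (open), each plus 1 on a log axis, in order of position. RNU1-1 leads in pairs, whereas RNU1-4 and RNU1-2 lead in counts with at most 142 pairs in a library.

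The U1 genes are described first. RNU1-1 (CHM13_G0000521) lies between genes on the minus strand at chr1:15955819-15955982. RNU1-4 (CHM13_G0000538, chr1:16463454-16463617) and RNU1-2 (CHM13_G0000550, chr1:16706420-16706583) lie on the plus strand, between exons of CROCC, the gene of the ciliary rootlet protein rootletin, which the annotation extends over both. Each gene is 164 bases long, and 507 kb separate RNU1-1 from RNU1-4 and 243 kb RNU1-4 from RNU1-2.

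RNU1-4 had 163533 counts with SFB empty vector and 104572 with SFB-Ku80. RNU1-2 had 101940 and 106045, and RNU1-1 had 12160 and 7139. RNU1-2 is thus the only one of these genes with more raw counts in SFB-Ku80, the library with the smaller total. Relative to the median feature, RNU1-2 stood at 1.48 (1.47 to 1.49) and was called higher, while RNU1-4 stood at 0.78 (0.77 to 0.79) and RNU1-1 at 0.65 (0.61 to 0.70). The call of RNU1-2 was lost with TMM factors (0.96), with median-of-ratios factors (0.98) and with counts outside features of 45S length as the total (0.46). On the last scale RNU1-4 stood at -0.24 and RNU1-1 at -0.36. That total still holds counts of the 2 features that dominate SFB-Ku80, so shares of it are pressed down there too. As shares of all counts RNU1-2 had 5155 CPM with SFB empty vector and 5927 with SFB-Ku80, RNU1-4 had 8269 and 5844, and RNU1-1 had 615 and 399, so on that scale RNU1-4 and RNU1-1 were lower in SFB-Ku80. CROCC itself had 980 and 330 counts, or -0.15 relative to the median feature (-0.33 to 0.03).

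Unique pairs put the weight on another copy. RNU1-1 had 1821 pairs with SFB empty vector and 1590 with SFB-Ku80, or 2.21 relative to the median feature in pairs (2.11 to 2.31). RNU1-4 had 142 and 19 pairs, or -0.43 (-1.11 to 0.24), and RNU1-2 had 50 and 8, or -0.097 (-1.12 to 0.93). The intervals of RNU1-4 and RNU1-2 include 0 and lie below that of RNU1-1, so the higher position of U1 in pairs came from RNU1-1. If 2 counts are set against each unique pair, 99.8% of the counts of RNU1-4 and 99.9% of those of RNU1-2 in SFB empty vector, and 99.96% and 99.98% in SFB-Ku80, were not covered by unique pairs. For RNU1-1 the figure was 70.0% with SFB empty vector and 55.5% with SFB-Ku80. Whether reads counted at RNU1-4 and RNU1-2 came from these genes or from another near-identical copy cannot be told apart in the tables.

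The mix of reads placed on the U1 genes differed between the libraries, but not in the same way in counts and in pairs. In counts RNU1-4 made up 58.9% of the 3 genes with SFB empty vector and 48.0% with SFB-Ku80, and RNU1-2 made up 36.7% and 48.7%. The ratio of RNU1-4 to RNU1-2 was 1.60 (1.59 to 1.62) in SFB empty vector and 0.986 (0.978 to 0.995) in SFB-Ku80. In pairs the same ratio was 2.84 (2.06 to 3.92) and 2.38 (1.04 to 5.43), with overlapping intervals. RNU1-1 made up 90.5% of the unique pairs of the 3 genes in SFB empty vector (89.1 to 91.7%) and 98.3% in SFB-Ku80 (97.6 to 98.8%).

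**Figure D3:**
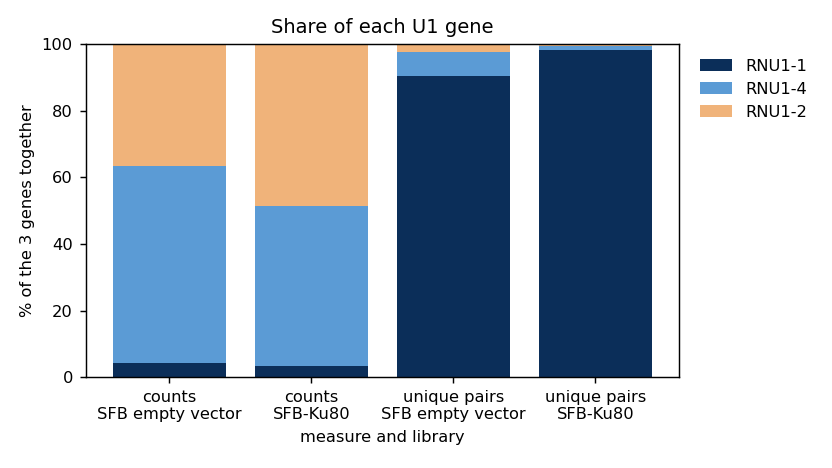
Share of RNU1-1, RNU1-4 and RNU1-2 in the sum of the 3 genes (y axis, %), for counts and for uniquely mapped pairs in each library. RNU1-1 takes 4.38% and 3.28% of the counts but 90.5% and 98.3% of the pairs.

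The 4 other U1 members are pseudogenes. RNU1-7P (chr1:7737475-7737638, within LINC01714 but on the opposite strand) had 59 counts with SFB empty vector and 5 with SFB-Ku80, with 37 and 2 pairs. RNU1-8P (chr1:6748690-6748854, within CAMTA1, a transcription activator gene) had 22 and 3 counts, with 12 pairs and 1 pair. Both had most of their reads in SFB empty vector, by counts and by pairs. RNU1-7P stood at -1.90 in counts (-3.11 to -0.69) and -1.26 in pairs (-2.95 to 0.44), and RNU1-8P at -1.10 (-2.63 to 0.43) and -0.29 (-2.44 to 1.85), so only the interval of RNU1-7P in counts lay below 0. RNU1-5P and RNU1-6P had 0 counts in both libraries. All 144 bases of RNU1-5P lie under exons of BX284668.2 and 129 of the 144 bases of RNU1-6P under those of LINC01783, and a read over several features was assigned to none.

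The U5 genes had few reads, but a larger part of them was unique. RNU5F-1 (CHM13_G0001410, chr1:44592727-44592843, minus strand) lies in an intron of ARMH1, which is on the other strand, and RNU5D-1 (CHM13_G0001411, chr1:44601992-44602107, minus strand) lies 9.15 kb further on, between genes. Both encode variants of U5, the snRNA that contacts both exons. RNU5F-1 had 144 counts with SFB empty vector and 160 with SFB-Ku80, and 68 and 51 pairs. RNU5D-1 had 64 and 136 counts, and 22 and 33 pairs. At 2 counts per unique pair, 5.56% of the counts of RNU5F-1 with SFB empty vector and 36.25% with SFB-Ku80 were not covered. For RNU5D-1 the figures were 31.25% and 51.5%, the latter near the 55.5% of RNU1-1 in SFB-Ku80. RNU5D-1 is the only member with at least 10 pairs over both libraries that had more pairs in SFB-Ku80, the library with fewer assigned pairs.

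Both U5 genes were called higher in counts, though with counts outside features of 45S length as the total RNU5F-1 stood at 0.55, under the limit, and RNU5D-1 at 1.48. RNU5D-1 stood at 2.50 in counts (2.07 to 2.92) and 2.97 in pairs (2.21 to 3.73), the highest value of the 6 tested genes in counts. RNU5F-1 stood at 1.57 (1.25 to 1.90) and 2.00 (1.48 to 2.52). The ratio of RNU5D-1 to RNU5F-1 was 0.444 in SFB empty vector (0.331 to 0.597) and 0.850 in SFB-Ku80 (0.676 to 1.07) in counts, and 0.324 (0.200 to 0.523) and 0.647 (0.418 to 1.00) in pairs. ARMH1, around RNU5F-1, was far below the median feature, with 350 and 32 counts, a value of -1.99 (-2.50 to -1.47). RNU5F-1 thus lay above the median feature while the gene that holds it lay below.

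The other U5 members add little. RNU5E-4P, a pseudogene, had 29 and 11 counts, a value of 0.10 (-0.87 to 1.07), and 4 and 2 pairs. RNU5E-1, a U5 gene in RefSeq, had 0 counts and 0 pairs in both libraries, and all of its 120 bases lie under exons of the lncRNA AL021155.4 on the same strand, which had 212 and 171 counts and stood at 1.11 (0.82 to 1.40). Of the unique pairs of AL021155.4, 10.4% and 7.97% lay in STAR's second stranded column, where most features had most of theirs. RNU11, the only U11 gene, likewise had 0 counts and 0 pairs in both libraries, and 131 of its 134 bases are shared with AL360012.1, which was at 0 as well. The 0 of RNU5E-1 and RNU11 therefore says nothing about U5E or U11 RNA in these libraries, because reads on shared bases were not assigned.

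U6 has 52 members here, 51 of them pseudogenes by symbol, and in 36 of the genes both libraries were at 0. RNU6-37P (chr1:9842559-9842666, in an intron of the gene named MSTRG.42 in the table) held most of the rest, with 278 of the 301 U6 counts in SFB empty vector and 181 of 210 in SFB-Ku80. It had only 13 and 12 unique pairs, and 90.6% and 86.7% of its counts were not covered by unique pairs at 2 counts each. RNU6-37P stood at 0.81 in counts (0.54 to 1.07) and 2.30 in pairs (1.21 to 3.39), though at -0.21 in counts on the scale outside features of 45S length, and MSTRG.42 stood at -0.43 in counts (-0.61 to -0.24). RNU6-48P, in an intron of TMEM222, had 0 counts with SFB empty vector and 14 with SFB-Ku80 with 0 pairs in both, so that none of these counts was a unique pair. The remaining U6 members, without RNU6-37P, had 23 counts and 29 counts in all.

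Of the smaller families, U2 had 17 counts with SFB empty vector and 22 with SFB-Ku80. RNU2-15P, a pseudogene with 56 of its 191 bases under an exon of DNAJC6, made up 11 and 20 of them, a value of 2.23 (1.21 to 3.25). It had 2 unique pairs in each library, and at 2 counts each these left 63.6% and 80.0% of its counts uncovered. The 8 U7 pseudogenes had 1 count and 5 counts, the 4 U4 pseudogenes 1 and 1, the 2 U6atac pseudogenes 3 and 0 and the 2 U4atac pseudogenes 1 and 0. AL161637.2 and the feature named U6 had 0 counts in both. As a ratio of shares of all counts, U2 had 1.43 (0.760 to 2.69) and U7 had 5.53 (0.646 to 47.3), both with intervals that include 1. In unique pairs U7 had 1 pair with SFB empty vector and 3 with SFB-Ku80, and its ratio of shares was 12.6 (1.31 to 121). With so few pairs the log-normal interval is not reliable, and no difference is read from it.

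**Figure D4:**
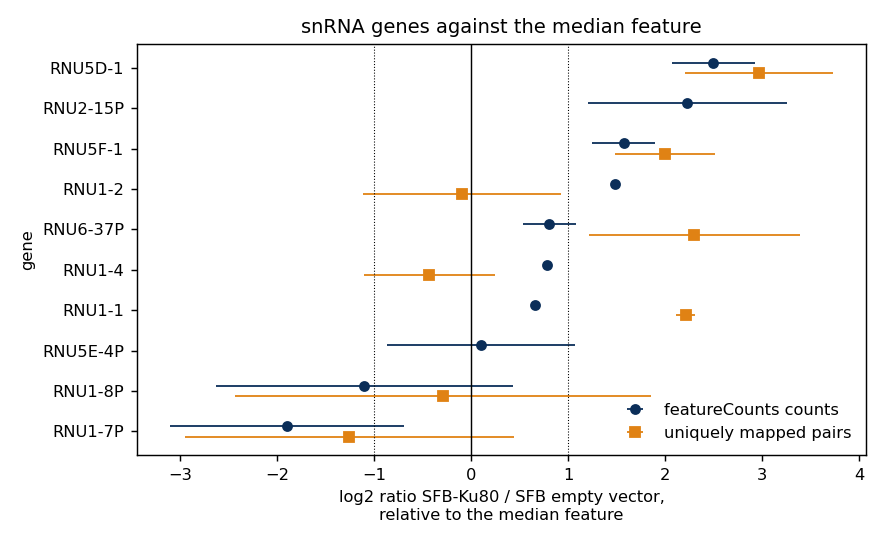
Log2 ratio of SFB-Ku80 to SFB empty vector relative to the median feature (x axis) for snRNA genes with a sum of at least 10 counts and counts in each library, from counts (circles) and from uniquely mapped pairs (squares, where there were at least 10). Bars are 95% counting intervals, dotted lines mark the 2-fold limits, and RNU5D-1, RNU5F-1, RNU6-37P and RNU1-1 lie right of 0 by both measures.

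Per length, the levels of the snRNA genes spanned a wide range. In CPM per kb of gene length, RNU1-4 had 50423 with SFB empty vector and 35636 with SFB-Ku80, RNU1-2 had 31432 and 36138, and RNU1-1 had 3749 and 2433. RNU6-37P followed with 130 and 93.7, then RNU5F-1 with 62.2 and 76.4 and RNU5D-1 with 27.9 and 65.5. The order was RNU1-4, RNU1-2, RNU1-1, RNU6-37P, RNU5F-1 and RNU5D-1 in SFB empty vector. In SFB-Ku80 RNU1-2 and RNU1-4 changed places and lay within 2-fold of each other, as did the last 3 genes. By counts the U1 genes thus stood over the others in both libraries. In unique pairs only RNU1-1 did so in both. With SFB-Ku80, RNU1-4 (19 pairs) and RNU1-2 (8) had fewer unique pairs than RNU5F-1 (51) and RNU5D-1 (33).

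STAR also gave the unique pairs for each strand. Over all features its second stranded column held 75.1% of the pairs of both columns with SFB empty vector and 67.6% with SFB-Ku80. RNU1-1 had 93.4% of its pairs in that column in SFB empty vector (1709 against 121) and 96.0% in SFB-Ku80 (1526 against 64). RNU5D-1 had 95.5% and 97.0%, RNU5F-1 had 76.5% and 84.3%, and RNU6-37P had all 13 and 12 pairs there. RNU1-4 had 84.7% and 84.2%. RNU1-2 was the exception among the U1 genes, with 26 pairs in the first column and 25 in the second in SFB empty vector, and 3 and 5 in SFB-Ku80. In the second column RNU1-1 stood at 2.47, RNU5F-1 at 2.37 and RNU5D-1 at 3.22 relative to its median feature.

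Position in the annotation was uneven among the members. Of the 84 genes, 59 lie between the exons of another feature on either strand, 19 lie between genes and 6 overlap an exon of another feature. Of the 6 that overlap an exon, 5 were at 0 counts in both libraries and the sixth is RNU2-15P. Of the 59 within introns 36 were at 0, and of the 19 between genes 10 were.

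For the protein side of the same pathway, 17 genes of splicing and snRNA processing in the named stretch of chromosome 1 were listed, among them SRRM1, SRSF4, SRSF10 and SRSF11 (splicing regulators rich in arginine and serine), SNRNP40 (a U5 particle protein), SF3A3 (a U2 particle protein), LSM10 (a U7 particle protein), INTS11 (the nuclease of the Integrator complex, which cuts snRNA precursors) and TOE1 (an exonuclease that trims snRNA 3′ ends). All 17 had at least 100 counts and all lay below the median feature, with a median of -1.41. Of them 10 were called lower and 0 higher, or 58.8%, where 25.3% of all features were called lower. DNAJC8 had the lowest value, with 1559 counts with SFB empty vector and 107 with SFB-Ku80, or -2.43 (-2.71 to -2.15). SNRNP40 had 505 and 70 counts, or -1.41 (-1.77 to -1.05). INTS11 had 2825 and 364 counts, or -1.53 (-1.69 to -1.37), and SFPQ, another splicing factor, 3799 and 1028, or -0.46 (-0.56 to -0.36). Abundant features lay lower in general, since the 4090 features with at least 1000 counts had a median of -0.65. Against that median 3 of the 17 genes were called lower and 13 lay below it. In pairs 3 of 15 tested genes were called lower and 0 higher, with a median of -0.60, and these 20.0% are close to the 18.8% of all features called lower in pairs. The part of abundance in the position of these genes was not tested.

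**Figure D5:**
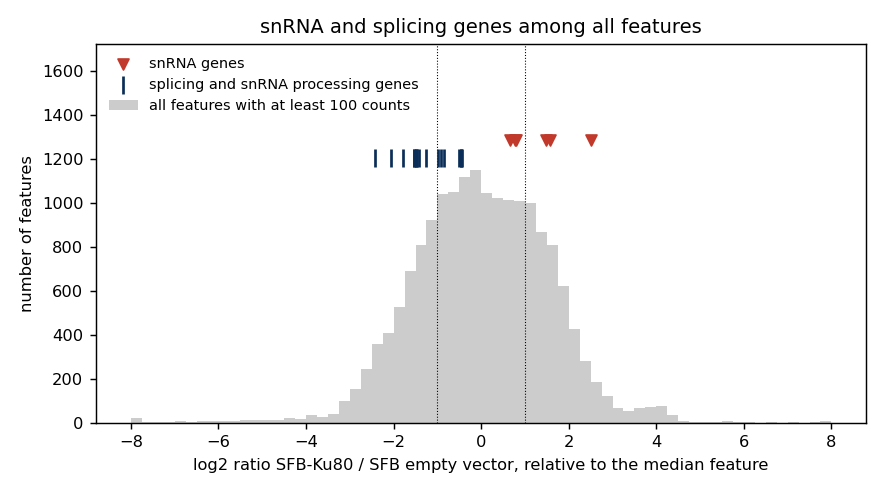
Number of features with at least 100 counts (y axis) by log2 ratio relative to the median feature (x axis, values beyond 8 placed in the end bins), with the 6 snRNA genes (triangles) and the 17 splicing and snRNA processing genes (ticks). The triangles lie between 0.65 and 2.50 and the ticks between -2.43 and -0.44.

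Other small RNA classes of the same stretch were sparse. The 25 snoRNA genes, which guide RNA modification, had 0.224% of the counts with SFB empty vector and 0.239% with SFB-Ku80, and 15 of them were at 0. Their share of the unique pairs was 0.338% with SFB empty vector and 1.32% with SFB-Ku80. A larger share of pairs in SFB-Ku80 was therefore not particular to the snRNA genes. Their 4 tested genes had a median of 0.32, with 2 called higher and 1 lower. Of the 7 scaRNA genes, which guide the modification of snRNA itself, 5 were at 0 and the 1 tested gene stood at 0.14. None of the 80 misc_RNA genes, which include the 7SL and 7SK copies, reached 100 counts. The 617 tested protein-coding genes of the stretch had a median of -0.21, with 23.7% called higher and 28.2% lower.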

How the data were processed

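Alignment by the authors used STAR (2.7.6a in the submitters' processing notes) and CHM13 v1.1. The deposited counts per feature came from featureCounts 2.0.2, which kept pairs whose ends both mapped and whose fragment had at least 18 bases, included multimapping reads and ignored strand. The authors also deposited STAR's counts of uniquely mapped pairs, unstranded and per strand, whose total lines were kept out. How many places per read were reported is not given in the sources used here. The rDNA bin files were not used. Names and biotypes came from the study's supplementary table by feature ID, and its counts were not used. No count table was scaled before deposit.

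Log2 ratios used a pseudocount of 1 and a filter of at least 100 counts over both libraries. Their calculation was checked on simulated independent counts in which a small part of the features was changed. Those counts held no multimapped reads, no PCR copies and no wide shift between the libraries, so the check does not cover these. Intervals are Wilson for shares and log-normal for ratios. Members were named with at least 10 counts or pairs over both libraries or a symbol without a final P, and RNU1-5P and RNU1-6P were added to these after their values were seen. Members and lists were chosen with earlier results of these data known. Alternatives changed the counter, strand, denominator, members, scaling (edgeR 4.0.16 TMM, median of ratios), pseudocount and filter. Feature positions were compared within the count tables. Python 3.11.15, pandas 2.3.3 and numpy 2.4.6 were used. With 1 library per condition no p-value was computed.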

Additional observations from a re-analysis of the deposited data

How the results depend on the processing

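The ratio of the snRNA shares of counts, 0.867 as reported, turned above 1 with STAR's unique pairs (3.32), its first (1.42) and second (3.84) stranded columns, with counts outside features of 45S length as the total (1.04) and without the 2 features with most counts in SFB-Ku80 (1.57, chosen after the data had been seen). Without RNU1-1, RNU1-2 and RNU1-4 it was 0.952.

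The U1 genes together, 1.07 above the median feature as reported, stayed above 0 in these settings. They stood at 2.09 in unique pairs, 2.37 in the second stranded column, 1.03 with a pseudocount of 5, 0.72 with at least 10 counts, 1.73 with at least 1000, 0.59 with no filter, 0.55 with TMM factors, 0.58 with median-of-ratios size factors and 0.054 with counts outside features of 45S length. RNU1-2 changed sign in unique pairs, at -0.097, and in the first stranded column, at -0.42. The number of members called higher, 3 as reported, was 5 of 11 with at least 10 counts, 1 of 6 with counts outside features of 45S length, where RNU5D-1 alone kept its call, and 2 of 6 with TMM or median-of-ratios factors, where RNU1-2 lost its call. With at least 10 counts 2 were called lower. The share of all features called in these settings was not computed, so these numbers are not read as a result about the members. The scalings of single genes were added after the data had been seen. For 10 named members, 39 of 40 values under another pseudocount or filter had the reported sign, and 16 of 21 in STAR's columns. The 39 of 40 are a weak check, since a filter moves all values by 1 common amount and a pseudocount hardly moves well-counted genes. They leave out the scalings. There RNU1-1, RNU1-4 and RNU6-37P fell below 0 with counts outside features of 45S length. RNU5E-4P did so with TMM (-0.42), median-of-ratios (-0.40) and that total (-0.92). That total still holds counts of the 2 features with most counts in SFB-Ku80, so shares of it are pressed down there too. The causes were not tested. Few unique pairs limit RNU1-2, RNU5D-1 and the pseudogenes. No paired analysis was possible because only a single library of each line was analysed here.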

Other observations

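Outside the members, 48 further features of the annotation are 164 bases long, the length of RNU1-1, and they are not named here. Of these, 19 had at least 100 counts, with a median of -1.17 relative to the median feature, 3 called higher (15.8%, against 26.8% of all features tested) and 10 lower (52.6%, against 25.3%). LOFF_G0000032 (chr1:16294286-16294449) is the 1 such feature between RNU1-1 and RNU1-4, where RefSeq on GRCh38.p14 places RNU1-3. It had 151781 counts with SFB empty vector and 96632 with SFB-Ku80, or 0.928 and 0.924 times those of RNU1-4, with 153 and 9 unique pairs. CHM13_G0016226 (chr14:28745470-28745633) had 24277 and 76944 counts and 589 and 2100 pairs, so it stood at 3.09 in counts (3.06 to 3.11) and 4.24 in pairs (4.11 to 4.37). STAR's first and second stranded columns gave it more pairs, 4735 and 8206 in SFB empty vector and 793 and 2996 in SFB-Ku80. In those columns SFB-Ku80 thus had fewer raw pairs, the opposite order to the unstranded pairs. SFB-Ku80 also had fewer assigned pairs in all, 1443251 against 6062669. The feature was not placed relative to the median feature of those columns, so no lower position is read from the raw pairs. CHM13_G0002994 on chromosome 1 (chr1:146768502-146768665) had 21133 and 75461 counts but 1204 and 152 pairs, at 3.26 in counts (3.24 to 3.28) and -0.57 in pairs (-0.81 to -0.33). CHM13_G0046875 (chr6:13087445-13087608) had 12471 and 46 counts, at -6.63 (-7.04 to -6.22). The remaining feature called higher, CHM13_G0002853, had 25742 and 75400 counts but 2416 and 517 pairs. It stood at 2.97 in counts (2.95 to 2.99) and 0.18 in pairs (0.047 to 0.32). Of the 3 called higher in counts, only CHM13_G0016226 was past the limit in pairs. Features of the same length as RNU1-1 thus lay far above and far below the median feature, and counts and unique pairs did not always give the same side. Whether these features encode U1 was not tested.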
